A study of Homo sapiens with 27 samples.

Results

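The 10 genes described here encode the contractile machinery and the actin cytoskeleton of fibroblasts: ACTA2, TAGLN, CNN1, MYL9, TPM1, TPM2, ACTB, ACTG1, ACTN1 and VCL. They were picked by symbol from the 60534 gene IDs that the deposited files share. Actin monomers assemble into filaments, tropomyosins lie along those filaments, and non-muscle myosin pulls on them once its regulatory light chain is phosphorylated. In fibroblasts the filaments form stress fibres that end at focal adhesions, where the cell grips its surroundings. Fibroblasts that raise smooth muscle actin and the proteins bound to it are called myofibroblasts and are known from wound healing and fibrosis. Many of these genes are textbook targets of serum response factor (SRF), which is held in check by free actin through its MRTF coactivators and recognises a DNA element named the CArG box.

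All cells were IMR90, a wild-type line of human fibroblasts from fetal lung, in 27 libraries from 5 states. Cycling cells were untreated and harvested at 40 to 60% confluency, and quiescent cells had stopped dividing by contact inhibition. Senescent cells had received either 15 Gy of ionizing radiation, with harvest 10 days later, or 3 treatments with 50 µM etoposide, a topoisomerase II poison that breaks DNA, over 10 days. The fifth state was cycling cells at 40 to 60% confluency given 25 nM thapsigargin for 3 h. Thapsigargin blocks the calcium pump of the endoplasmic reticulum and causes stress there. RNA-seq measured mRNA, and ribosome profiling (Ribo-seq) counted the fragments of 25 to 40 bases that ribosomes shield from RNase. Each state had 3 libraries of each kind, apart from 2 RNA-seq libraries of cycling cells and 2 of each kind for thapsigargin. The labels name 1 cell line and do not say that replicates came from separate cultures, so p-values measure the spread between these libraries, which may be technical.

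Levels are counts scaled to 1e6 per library after TMM scaling (CPM), as mean ± SD over libraries. Gene counts per library, in units of 1e6 reads, ranged from 20.6 to 57.1 in RNA-seq and from 1.94 to 20.0 in Ribo-seq. A member had at least 1859 reads in every RNA-seq library and at least 129 in every Ribo-seq library, so counting error was small for most values, and all 10 passed the filter on low counts. Because CPM is not corrected for gene length, levels are compared between states and not between genes. The thapsigargin libraries stood apart in their processing: 1.35 to 1.40% of their RNA-seq reads were unmapped, against 27.8 to 40.6% in other states, and 65.2 to 66.9% of their Ribo-seq reads mapped to several places, against 19.8 to 31.9%. Their Ribo-seq files also follow a longer gene list (62703 IDs) than the other 12 Ribo-seq files (60664 IDs), and their medium is described without antibiotics. In every comparison with thapsigargin these differences and the drug cannot be told apart. Irradiated Ribo-seq libraries were also shallower than cycling ones (2.65 to 5.56 against 9.87 to 14.4, in units of 1e6). Of their reads 24.4 to 34.7% were unmapped, against 16.6 to 19.1%. In RNA-seq, multimapped reads were 13.2 and 33.4% in cycling replicates 1 and 2, and 38.0 and 19.7% in those of thapsigargin. The part of these differences in the values below was not tested.

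Marker genes bore out the labelled cell type. All 10 fibroblast markers passed the filter in both assays. Their summed level was 11469 to 19489 CPM over the RNA-seq libraries. In footprints it was 42065 to 46183 CPM in cycling cells, 25531 to 54464 at quiescence, 27544 to 30175 after irradiation, 37845 to 38570 after etoposide and 13542 to 14264 under thapsigargin. Epithelial markers summed to at most 1.57 CPM and immune markers to at most 1.82 CPM in any RNA-seq library. The endothelial list summed in RNA-seq to 5.35 and 5.55 CPM under thapsigargin, 18.4 to 24.7 in cycling cells, 14.5 to 28.97 at quiescence, 33.2 to 36.4 after irradiation and 56.9 to 89.96 after etoposide. Its most abundant gene, TEK, ran from 3.00 to 88.0 CPM over the RNA-seq libraries, and VWF from 0.591 to 2.55 CPM. PECAM1, CDH5, KDR and CLDN5 stayed at or below 0.491 CPM. The smooth muscle list, mostly the enteric actin ACTG2, summed to 494 to 520 CPM in the cycling RNA-seq libraries, to 522 to 719 at quiescence, 635 to 689 after irradiation, 563 to 732 after etoposide and 325 to 428 under thapsigargin. Its footprints summed to 1396 to 1803 CPM in cycling cells, 1727 to 2284 at quiescence, 1742 to 1915 after irradiation, 1169 to 1856 after etoposide and 974 to 1078 under thapsigargin. These 3 lists thus moved with state beside the members below, and their part in the members' changes was not tested. In bulk samples, fewer cells that express a gene and less RNA per cell cannot be told apart.

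The promoter letters of the members are shown where the SRF element was found, because SRF is the factor that this group of genes is best known for. RefSeq promoter windows (build GRCh38.p14, 250 bases before to 50 after a start site) were given for 7 of the 10 members, 12 windows in all. TAGLN, MYL9 and ACTB had no entry. The exact CArG box, searched on both strands, was present in 1.29% of 35116 such promoters, and a box with 1 middle letter other than A or T in 6.94%. Among the members, ACTG1 and the third listed start of ACTN1 held an exact box, and the second listed start of ACTA2 held 2 boxes with such a letter. The 50-base stretches around them lie on the minus strand at chr10:88952865-88952914 and chr10:88952815-88952864 (ACTA2), chr17:81512864-81512913 (ACTG1) and chr14:68977708-68977757 (ACTN1), with the box in capitals.
ACTA2, box starting at -121 from the start site: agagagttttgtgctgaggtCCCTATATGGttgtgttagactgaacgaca
ACTA2, box starting at -71: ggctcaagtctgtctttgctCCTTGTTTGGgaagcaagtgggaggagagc
ACTG1, box starting at -94: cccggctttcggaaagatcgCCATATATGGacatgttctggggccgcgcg
ACTN1, box starting at -171: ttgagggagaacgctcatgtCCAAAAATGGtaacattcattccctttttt
A match is a description of these letters and not a measured binding site, and its absence from the other windows says nothing of SRF there. The motif TATAAA was in 11.5% of all windows and, among the members, in the ACTN1 window shown.

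Few of the 10 genes were called in any comparison at the RNA level, and which ones were called differed between the states. The test was edgeR's quasi-likelihood F test, two-sided, with Benjamini-Hochberg adjustment over all genes tested. A gene with an adjusted p below 0.05 is called, and every adjusted p comes from that test unless another tool is named. Against cycling cells, no member was called in quiescent RNA-seq (15.6% of all 13289 tested genes were), although 2 had an unadjusted p under 0.05 and DESeq2 called 1. Irradiation raised 2 members, TAGLN and TPM2 (34.9% of all genes were called), etoposide raised TPM2 alone (34.5%), and thapsigargin lowered ACTA2 and CNN1 (24.5%). The members' median log2 fold change was 0.23, 0.33, 0.11 and 0.04 in these comparisons, against 0.02, 0.03, 0.00 and -0.03 over all genes. In these comparisons with cycling cells the shares of members called in RNA-seq were all below those of all genes. Whether called or not, 10 of 10 members lay above 0 at quiescence, 6 after irradiation, 8 after etoposide and 5 under thapsigargin.

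More members were called in footprints than in RNA-seq. More calls do not show that more members changed, because RNA-seq had fewer cycling libraries and SEs differed between the assays. After irradiation the SE of MYL9 was 0.45 in RNA-seq and 0.12 in footprints, while that of VCL was 0.15 and 0.19. In quiescent cells ACTA2, MYL9, TPM1 and ACTN1 rose (4 of 10, with 22.4% of all 11762 genes called). After irradiation TAGLN, MYL9, TPM2 and ACTN1 rose and VCL fell (5 of 10, with 40.6% called). With etoposide MYL9, TPM2 and ACTN1 rose (3 of 10, with 33.9% called). With thapsigargin ACTG1, ACTN1 and VCL rose while MYL9 and TPM2 fell (5 of 10, with 44.6% called). The share of members called was below that of all genes with etoposide and above it in the other states, and these differences were not tested. Median log2 fold changes of the members' footprints were 0.39, 0.52, 0.25 and -0.18, beside 0.04, 0.03, 0.01 and -0.08 for all genes. Footprint values lay above 0 for 10, 9, 7 and 4 of the 10 members. All 4 comparisons share the cycling libraries.

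**Figure D1:**
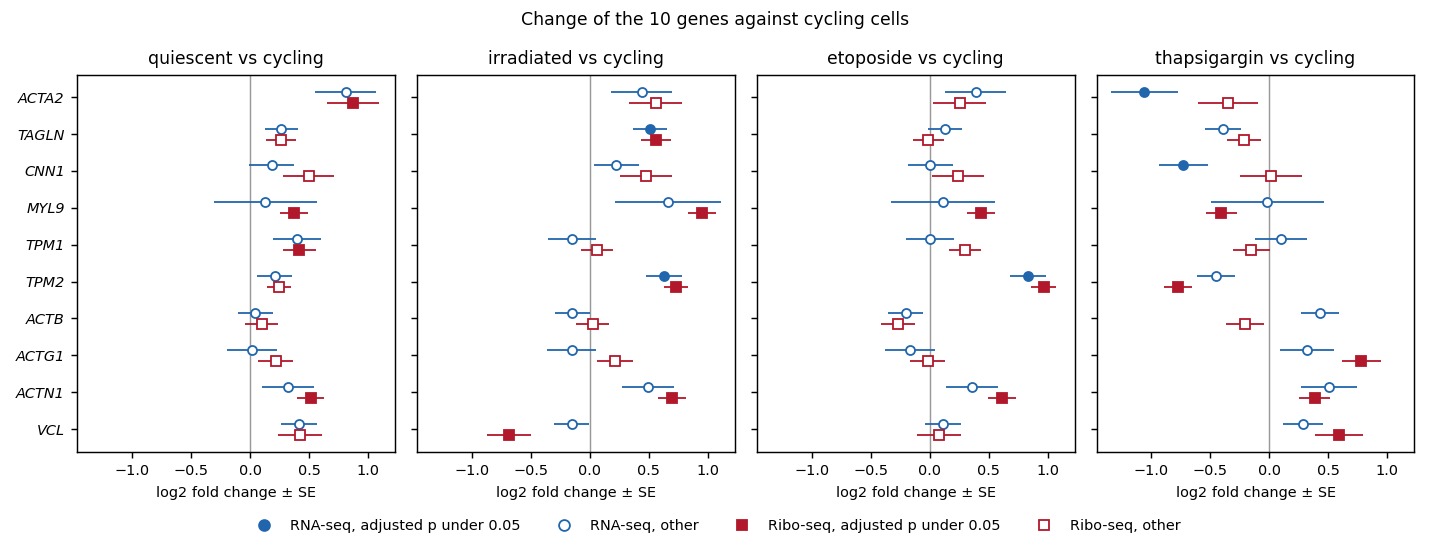
Log2 fold change (x axis, ± SE) of each of the 10 genes (y axis) against cycling cells, by state (panels), in RNA-seq (circles) and Ribo-seq (squares), with filled symbols for an adjusted p under 0.05. TPM2 lies on the right of 0 in both senescent states and on the left with thapsigargin, and VCL footprints lie on the left after irradiation only among these 4 panels.

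ACTA2 (ENSG00000107796, chr10:88935074-88991337, GRCh38.p14) encodes smooth muscle actin, the marker of the myofibroblast. Its locus overlaps FAS and the antisense gene ACTA2-AS1, and its coding sequence resembles those of the other actins, so some of its reads may be lost or shared. ACTA2 mRNA was 754 and 636 CPM in the 2 cycling libraries and 856, 1132 and 1661 CPM in the quiescent ones. It was 876, 1049 and 897 CPM after irradiation, 1009, 1102 and 623 CPM with etoposide, and 347 and 319.7 CPM with thapsigargin. The thapsigargin libraries were lower than all others, the quiescent and irradiated libraries were all above the cycling ones, and the etoposide libraries straddled them.

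ACTA2 mRNA fell with thapsigargin by 1.06 ± 0.28 on the log2 scale (adjusted p = 0.0151). This call was lost without cycling replicate 1 (-0.93, adjusted p = 0.0961) or thapsigargin replicate 2 (-0.99, adjusted p = 0.0762). The quiescent value of 0.81 ± 0.26 missed the threshold (adjusted p = 0.0522), and passed it without quiescent replicate 1 (1.01, adjusted p = 0.0159), by DESeq2 (0.80, adjusted p = 0.0176) and with unstranded counts (0.84, adjusted p = 0.0336). The irradiated value of 0.44 ± 0.26 (adjusted p = 0.210) was called in a fit of the 2 states alone (0.41, adjusted p = 0.00514). Ordered by mean, mRNA was highest at quiescence (1216 ± 409 CPM), then after irradiation (941 ± 94.1) and etoposide (911 ± 254), then in cycling cells (695 ± 83.9) and last under thapsigargin (333 ± 19.3). Of the neighbours in this order, only cycling and thapsigargin-treated cells were called different.

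Cycling libraries had 2079, 1887 and 2101 CPM of ACTA2 footprints, and quiescent libraries 2517, 3529 and 5048. After irradiation the values were 2761, 2987 and 3173 CPM, after etoposide 2774, 2850.0 and 1609, and under thapsigargin 1514 and 1661. The order of the state means was the same as for mRNA. Quiescent libraries all lay above the cycling ones, and footprints rose by 0.87 ± 0.22 on the log2 scale (adjusted p = 0.0136). That call did not survive leaving out quiescent replicate 3 (0.56, adjusted p = 0.0590) or cycling replicate 2 (0.82, adjusted p = 0.0505), nor a fit of the 2 states alone (0.85, adjusted p = 0.0533). Irradiated libraries also did not overlap the cycling ones, at 0.56 ± 0.22 and an adjusted p of 0.0613. DESeq2 called that difference (0.57, adjusted p = 0.0431), as did a fit of the 2 states alone (0.52, adjusted p = 5.5e-05). The thapsigargin value of -0.35 ± 0.25 (adjusted p = 0.278) was also called with those 2 states fitted alone (-0.38, adjusted p = 0.0243).

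**Figure D2:**
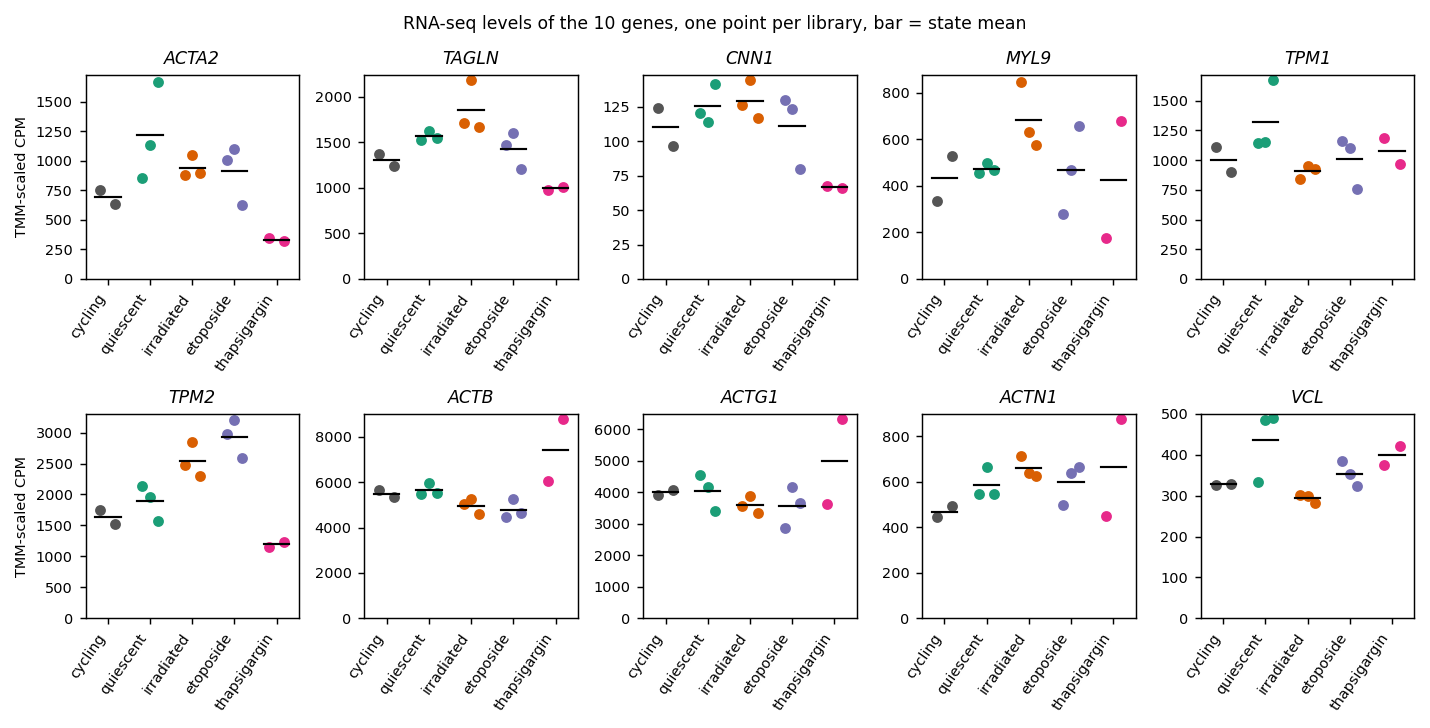
RNA-seq level of each gene (y axis, TMM-scaled CPM from 0) in the 5 states (x axis), with a point per library and a bar at the state mean. ACTA2 ranges from 319.7 CPM with thapsigargin to 1661 CPM in a quiescent library, and MYL9 differs between the 2 thapsigargin libraries (175 and 679.6 CPM).

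TAGLN (ENSG00000149591, chr11:117199294-117207465) encodes transgelin, an actin-binding protein of smooth muscle. It overlaps PCSK7 and another annotated locus. TAGLN mRNA was 1369 and 1240.0 CPM in cycling cells and 1715, 2184 and 1674 CPM after irradiation, without overlap, a rise of 0.51 ± 0.14 on the log2 scale (adjusted p = 0.0139). The call was lost without cycling replicate 1 (0.58, adjusted p = 0.0504), cycling replicate 2 (0.44, adjusted p = 0.119) or irradiated replicate 2 (0.38, adjusted p = 0.0586). Quiescent libraries had 1528, 1625 and 1549 CPM, etoposide-treated ones 1471, 1598 and 1207, and thapsigargin-treated ones 982 and 1005, none of them called against cycling cells.

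The footprints of TAGLN rested on firmer ground. They were 3128, 2882 and 3121 CPM in cycling and 4211, 4598 and 4649 CPM in irradiated cells, and rose by 0.56 ± 0.13 on the log2 scale (adjusted p = 0.00357), a call kept in every alternative fit. Etoposide-treated libraries had 3252, 3366 and 2446 CPM and a change of -0.01 ± 0.13 (adjusted p = 0.962). Quiescent libraries had 3041, 3585 and 4304 CPM, and thapsigargin-treated ones 2734 and 2502 CPM, with no call.

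CNN1 (ENSG00000130176, chr19:11538851-11550323) encodes calponin, which binds actin and dampens myosin activity in smooth muscle. Its mRNA was 124 and 96.5 CPM in cycling cells and 67.7 and 65.8 CPM with thapsigargin, a fall of 0.73 ± 0.21 on the log2 scale (adjusted p = 0.0224). This is a fragile call: it was lost without cycling replicate 1 (-0.53, adjusted p = 0.190), thapsigargin replicate 1 (-0.75, adjusted p = 0.0561) or thapsigargin replicate 2 (-0.69, adjusted p = 0.0857), and in a fit of the 2 states alone (-0.69, adjusted p = 0.0542). Other states ranged from 79.5 to 145 CPM in single RNA-seq libraries. CNN1 footprints ranged from 59.7 to 138 CPM over all 14 libraries and were not called in any of the 7 comparisons. Irradiated libraries lay above all cycling ones, at 0.48 ± 0.22 (adjusted p = 0.103). A fit of the 2 states alone called that rise (0.44, adjusted p = 0.00547).

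MYL9 (ENSG00000101335, chr20:36541519-36551447) encodes the regulatory light chain of non-muscle and smooth muscle myosin, whose phosphorylation switches on contraction. It showed the widest gap between RNA-seq replicates of the 10 genes. MYL9 mRNA was 337 and 529 CPM in the cycling libraries and 454, 499 and 467 at quiescence. Irradiated cells had 846, 632 and 578 CPM, those given etoposide 278, 469 and 659, and those given thapsigargin 175 and 679.6. No RNA-seq comparison called it, and its irradiated value was 0.66 ± 0.45 (adjusted p = 0.273). Against quiescent cells, a fit of the 2 states alone called it higher after irradiation (0.53, adjusted p = 0.0381). The thapsigargin value of -0.02 turned on which library was used: it was -1.29 without replicate 2 (adjusted p = 0.0450) and 0.66 without replicate 1 (adjusted p = 0.219).

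MYL9 footprints agreed more closely between replicates and separated the states. They were 969, 1026 and 1304 CPM in cycling cells and 2098, 2116 and 2145 CPM after irradiation, a rise of 0.95 ± 0.12 on the log2 scale (adjusted p = 3.6e-05) that was called in every alternative fit. With etoposide they were 1519.7, 1598 and 1338 CPM (0.43 ± 0.12, adjusted p = 0.0112), and in quiescent cells 1305, 1322 and 1647 CPM (0.37 ± 0.12, adjusted p = 0.0353). Thapsigargin libraries had 822 and 836 CPM (-0.41 ± 0.13, adjusted p = 0.0244). Each of these 4 states was clear of the cycling libraries, although the quiescent and etoposide libraries began just above the highest of them.

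The 3 smaller changes of MYL9 footprints each depended on single libraries. The etoposide call was lost without cycling replicate 1 (0.34, adjusted p = 0.0649) or etoposide replicate 2 (0.37, adjusted p = 0.0606). The quiescent call was lost without cycling replicate 1 (0.27, adjusted p = 0.183), cycling replicate 2 (0.33, adjusted p = 0.121) or quiescent replicate 3 (0.23, adjusted p = 0.166), and in a fit of the 2 states alone (0.36, adjusted p = 0.135). The thapsigargin call was lost without cycling replicate 3 (-0.27, adjusted p = 0.0951), thapsigargin replicate 1 (-0.39, adjusted p = 0.101) or thapsigargin replicate 2 (-0.42, adjusted p = 0.0704).

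TPM2 (ENSG00000198467, chr9:35681993-35690056) encodes beta-tropomyosin and carried the most stable changes of the group. TPM2 mRNA was 1756 and 1524 CPM in cycling cells, and quiescent libraries had 2145, 1959 and 1568. It reached 2471, 2850.3 and 2294 CPM after irradiation and 2984, 3201 and 2584 after etoposide, against 1157 and 1239 under thapsigargin. All 6 senescent libraries lay above all cycling and quiescent ones, and both thapsigargin libraries below all others. Etoposide raised TPM2 mRNA by 0.83 ± 0.15 on the log2 scale (adjusted p = 0.00099), in every alternative fit. Irradiation raised it by 0.63 ± 0.15 (adjusted p = 0.00599), a call lost without cycling replicate 2 (0.53, adjusted p = 0.0770). The thapsigargin value was -0.45 ± 0.17 (adjusted p = 0.0621).

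TPM2 footprints followed the same order. The lowest values were 1989 and 1992 CPM under thapsigargin, followed by 3347, 3278 and 3603 in the cycling set and 3804, 3907 and 4389 at quiescence. Irradiated libraries had 5358, 5802 and 5803 CPM, and the etoposide set 7339.6, 7191 and 5439.7. The 5 states ran from thapsigargin through cycling, quiescent and irradiated to etoposide, and only the last pair of neighbours overlapped. Against cycling cells footprints rose by 0.97 ± 0.10 on the log2 scale with etoposide (adjusted p = 8.5e-06) and by 0.73 ± 0.10 after irradiation (adjusted p = 0.00010), and fell by 0.78 ± 0.12 with thapsigargin (adjusted p = 0.00019). These 3 calls held in every alternative fit. The quiescent value was 0.24 ± 0.10 (adjusted p = 0.112).

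TPM1 (ENSG00000140416, chr15:63042747-63071915), the gene of alpha-tropomyosin, overlaps the antisense gene TPM1-AS. It did not follow TPM2. Its mRNA averaged 1003 ± 149 CPM in cycling cells, 1322 ± 304 at quiescence and 904 ± 58.7 after irradiation. The means were 1007 ± 217 CPM with etoposide and 1075 ± 151 with thapsigargin, and no state was called against cycling cells. TPM1 footprints were 1516, 1333 and 1459 CPM in cycling and 1669, 1922 and 2153 CPM in quiescent cells, a rise of 0.42 ± 0.14 on the log2 scale (adjusted p = 0.0463).

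The TPM1 call sat close to the threshold. It was lost without any of the cycling replicates (0.43, 0.36 and 0.43, adjusted p = 0.0962, 0.145 and 0.107), without quiescent replicate 2 (0.41, adjusted p = 0.0981) or 3 (0.30, adjusted p = 0.174), and in 4 other alternative fits. With etoposide, footprints of 2031, 1959 and 1313 CPM gave 0.30 ± 0.14 (adjusted p = 0.115), and 0.46 without replicate 3 (adjusted p = 0.0056).

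TPM2 made up 62.1 ± 1.15% of the TPM1 and TPM2 counts in cycling RNA-seq and 58.9 ± 9.15% at quiescence. The share was 73.7 ± 2.08% after irradiation, 74.6 ± 2.67% after etoposide and 52.8 ± 4.71% under thapsigargin. In Ribo-seq, taken in that order, it was 70.4 ± 1.33, 67.9 ± 1.41, 79.1 ± 0.135, 79.2 ± 1.22 and 60.7 ± 0.790%. The shares are not corrected for length and are read only across states, where both senescent states lay above all others and thapsigargin lowest in Ribo-seq.

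**Figure D3:**
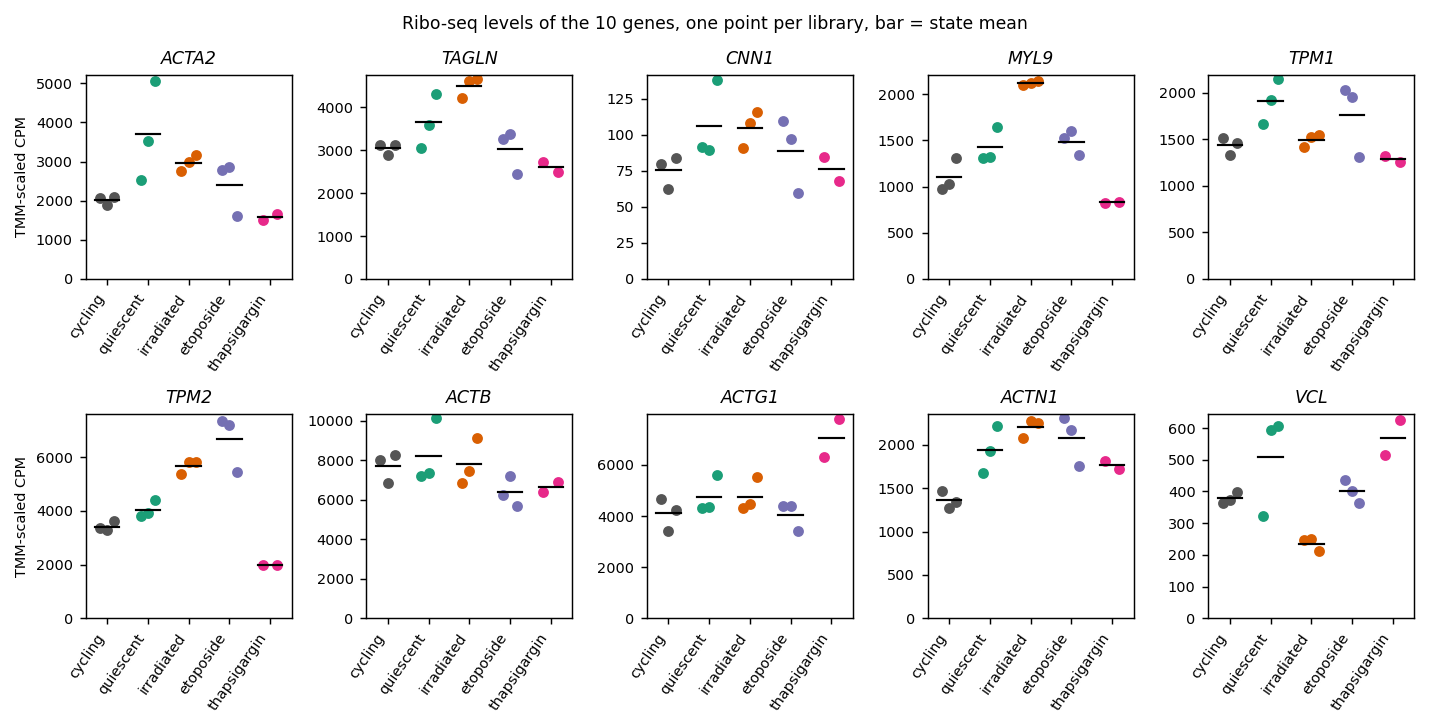
Ribo-seq level of each gene (y axis, TMM-scaled CPM from 0) in the 5 states (x axis), with a point per library and a bar at the state mean. TPM2 runs from 1989 CPM with thapsigargin to 7339.6 CPM with etoposide, VCL is lowest in the 3 irradiated libraries (212 to 249 CPM), and the highest quiescent point is replicate 3 for all 10 genes.

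ACTB (ENSG00000075624, chr7:5527148-5530601) and ACTG1 (ENSG00000184009, chr17:81509971-81512799) encode the 2 cytoplasmic actins, whose proteins are nearly identical. Both have many processed copies in the genome, and reads that map to several places are in no gene's count, so their values are uncertain. ACTB mRNA was 5671 and 5330.0 CPM in cycling libraries, and 5461, 5978 and 5539.6 at quiescence. It was 5033, 5267 and 4588 CPM after irradiation, 4459, 5246 and 4627 after etoposide, and 6036 and 8799 under thapsigargin. No comparison called it at the RNA level. The thapsigargin value was 0.43 ± 0.16 (adjusted p = 0.0692), which became 0.68 without thapsigargin replicate 1 (adjusted p = 0.00706) and 0.15 without replicate 2 (adjusted p = 0.527), and DESeq2 called it (0.45, adjusted p = 0.0360). ACTB footprints ranged from 5707 to 10130.4 CPM over all libraries, with no call in any comparison. With etoposide they were called lower in 2 alternatives. These were the 2 states fitted alone against cycling cells (-0.28, adjusted p = 0.0460) and no filter on low counts against quiescent cells (-0.42, adjusted p = 0.0355).

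ACTG1 mRNA likewise was not called. It was 3919 and 4073 CPM in cycling and 3639.7 and 6317 CPM in thapsigargin-treated cells, so the 2 treated libraries lay on either side of the cycling ones. Without thapsigargin replicate 1 the value went from 0.32 to 0.67 (adjusted p = 0.0357), and without replicate 2 to -0.12 (adjusted p = 0.740). ACTG1 footprints were 4662, 3422 and 4221 CPM in cycling cells and 6308 and 7776 CPM with thapsigargin, above every other library, and rose by 0.78 ± 0.17 on the log2 scale (adjusted p = 0.00210) in every alternative fit. In quiescent, irradiated and etoposide-treated cells ACTG1 footprints ranged from 3401 to 5617 CPM, with no call.

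The ratio of ACTG1 to ACTB footprints shows the divergence of the 2 actins within each library. It averaged 0.531 ± 0.0443 in the cycling set, 0.581 ± 0.0234 at quiescence, 0.609 ± 0.0146 after irradiation and 0.635 ± 0.0588 after etoposide. Under thapsigargin it was 0.985 and 1.12. The same ratio in RNA-seq was 0.728 ± 0.0517 in cycling and 0.660 ± 0.0812 in thapsigargin-treated cells, with overlapping libraries. The share of multimapped reads and the gene list of the thapsigargin Ribo-seq files, given above, differ with this ratio, and their part in it was not tested. ACTA2 made up 14.7 ± 0.758% of the footprints on the 3 actin genes in cycling cells and 21.8 ± 3.38% at quiescence. The shares were 19.2 ± 1.22% after irradiation, 18.5 ± 3.05% after etoposide and 10.4 ± 0.339% under thapsigargin. In RNA-seq it made up 6.81 ± 0.679, 11.2 ± 4.01, 9.90 ± 0.559, 9.87 ± 2.62 and 2.77 ± 0.984%, in the same order of states.

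**Figure D4:**
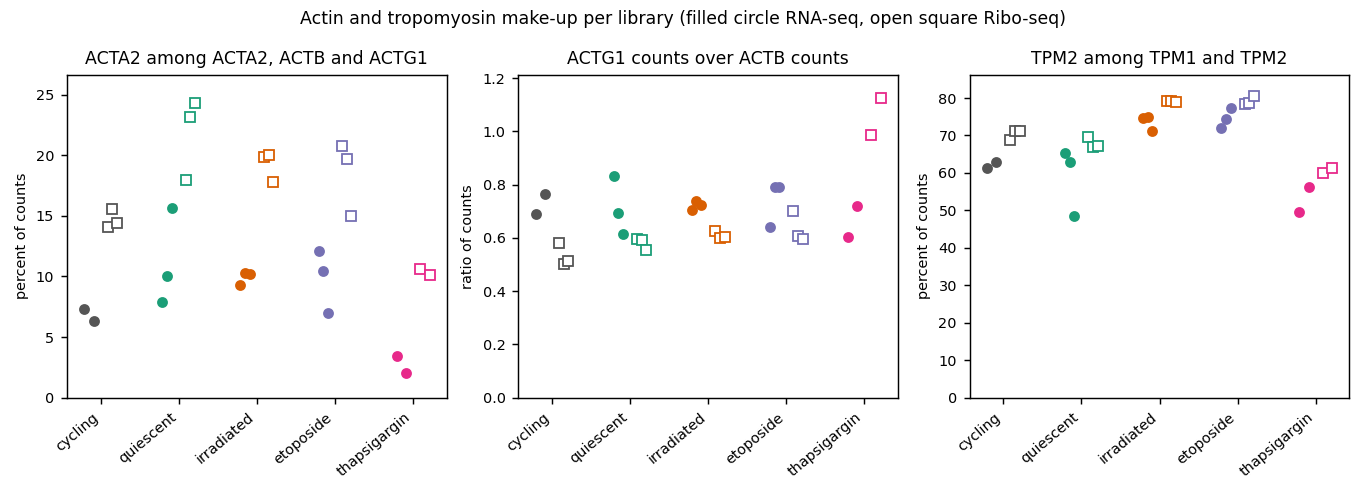
Share of ACTA2 in the counts on ACTA2, ACTB and ACTG1 (left, percent), ratio of ACTG1 to ACTB counts (middle) and share of TPM2 in the counts on TPM1 and TPM2 (right, percent) for each library, by state (x axis), as filled circles for RNA-seq and open squares for Ribo-seq. The ACTG1 to ACTB ratio of footprints is 0.985 and 1.12 with thapsigargin and at most 0.703 in the other Ribo-seq libraries.

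ACTN1 (ENSG00000072110, chr14:68874128-68979302) encodes alpha-actinin, which bundles actin filaments in stress fibres and links them to integrins. Its mRNA averaged 468 ± 31.8 CPM in cycling cells, 586 ± 67.9 at quiescence, 659 ± 47.0 after irradiation, 599.7 ± 90.4 after etoposide and 664 ± 300.4 under thapsigargin, with no call. The quiescent, irradiated and etoposide libraries all lay above both cycling ones. The irradiated value of 0.49 ± 0.22 (adjusted p = 0.101) was called in a fit of the 2 states alone (0.47, adjusted p = 0.00068). The 2 thapsigargin libraries had 451 and 876 CPM, and without the lower one, replicate 1, the value went from 0.50 to 0.91 (adjusted p = 0.00445), and without replicate 2 to -0.04 (adjusted p = 0.917). Footprints on ACTN1 were 1473, 1266 and 1336 CPM in the cycling set and 1669.6, 1923 and 2213 at quiescence. They were 2073, 2278 and 2250.3 CPM after irradiation, 2304, 2170.0 and 1754 after etoposide, and 1817 and 1724 under thapsigargin. Every library of the other states lay above every cycling library.

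ACTN1 is the 1 member whose footprints were called higher in all 4 comparisons with cycling cells. The rise was 0.51 ± 0.12 on the log2 scale at quiescence (adjusted p = 0.00664), 0.70 ± 0.12 after irradiation (adjusted p = 0.00035), 0.61 ± 0.12 after etoposide (adjusted p = 0.00103) and 0.38 ± 0.13 under thapsigargin (adjusted p = 0.0266). These comparisons share the 3 cycling libraries. The thapsigargin call was lost without cycling replicate 2 (0.33, adjusted p = 0.0823) or 3 (0.37, adjusted p = 0.0619), without thapsigargin replicate 1 (0.34, adjusted p = 0.123) or 2 (0.42, adjusted p = 0.0538), and with no filter on low counts (0.28, adjusted p = 0.0753). The other 3 calls held in every alternative fit.

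VCL (ENSG00000035403, chr10:73998116-74121363) encodes vinculin, which couples actin to focal adhesions under load. Its locus overlaps AP3M1. VCL mRNA was 326 and 329 CPM in cycling cells, 333, 486 and 489.9 at quiescence and 301, 299.5 and 281 after irradiation. Etoposide libraries had 386, 352 and 323 CPM and thapsigargin libraries 376 and 422, and no state was called against cycling cells. The quiescent value of 0.41 ± 0.15 (adjusted p = 0.0885) became 0.58 without quiescent replicate 1 (adjusted p = 0.00662).

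VCL footprints were lowest after irradiation. Irradiated libraries had 246, 249 and 212 CPM, against 365, 372 and 399 in cycling cells and 321, 594 and 607 at quiescence. With etoposide the values were 436, 402 and 364 CPM, and with thapsigargin 514 and 624. No irradiated library reached the lowest library of any other state. Against cycling cells VCL footprints fell by 0.69 ± 0.19 on the log2 scale (adjusted p = 0.00951), in every alternative fit. The thapsigargin rise of 0.59 ± 0.21 (adjusted p = 0.0323) was lost when any of the 5 libraries was left out, with values from 0.44 to 0.72 and adjusted p from 0.0517 to 0.195, and with no filter on low counts (0.49, adjusted p = 0.0907). Quiescent replicate 1 was apart from the other 2, and without it the quiescent value went from 0.42 to 0.63 (adjusted p = 0.00082).

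Quiescent cells had also stopped dividing, so the senescent states were compared with them as well as with cycling cells. In RNA-seq TPM2 rose after irradiation, by 0.42 ± 0.13 on the log2 scale (adjusted p = 0.0428), and VCL fell by 0.57 ± 0.14 (adjusted p = 0.0110), so 2 of 10 members were called, with 18.7% of all genes called (9.01% higher and 9.71% lower). TPM1 missed the threshold at -0.55 ± 0.18 (adjusted p = 0.05004). The TPM2 call was lost without quiescent replicate 2 (0.45, adjusted p = 0.0884) or 3 (0.31, adjusted p = 0.136), without irradiated replicate 1 (0.44, adjusted p = 0.0871), 2 (0.33, adjusted p = 0.192) or 3 (0.49, adjusted p = 0.0548), and in a fit of the 2 states alone (0.42, adjusted p = 0.0953). The VCL call was lost without irradiated replicate 3 (-0.54, adjusted p = 0.05003). TPM1 was called in 6 alternatives, among them DESeq2 (-0.55, adjusted p = 0.0243) and the fit without quiescent replicate 1 (-0.64, adjusted p = 0.0316).

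Between irradiated and quiescent cells, footprint values of MYL9 and TPM2 were close to those of mRNA (0.53 ± 0.39 and 0.42 ± 0.13), with smaller SEs. VCL moved further in footprints than in mRNA (-0.57 ± 0.14), and TPM1 less (-0.35 ± 0.14 against -0.55 ± 0.18). MYL9 rose by 0.57 ± 0.12 on the log2 scale (adjusted p = 0.00490) and TPM2 by 0.49 ± 0.10 (adjusted p = 0.00597), while VCL fell by 1.11 ± 0.19 (adjusted p = 0.00124). These 3 of 10 members, with 14.6% of all genes called (7.22% higher and 7.35% lower), were called in every alternative fit. Quiescent replicate 3, the highest library for all 10 members, bears on TAGLN, whose value went from 0.30 to 0.43 without it (adjusted p = 0.0391). Without quiescent replicate 1, TPM1 went from -0.35 to -0.42 (adjusted p = 0.0451), and without a filter on low counts to -0.45 (adjusted p = 0.0376).

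Etoposide-treated cells differed from quiescent ones in a single member at the RNA level (41.7% of all genes were called, 21.1% higher and 20.6% lower). TPM2 rose by 0.63 ± 0.14 on the log2 scale (adjusted p = 0.00228), in every alternative fit. Without quiescent replicate 1, ACTA2 (-0.62, adjusted p = 0.0370) and VCL (-0.46, adjusted p = 0.0035) were also called. In footprints TPM2 rose by 0.72 ± 0.10 (adjusted p = 0.00014) in every alternative fit and ACTA2 fell by 0.62 ± 0.22 (adjusted p = 0.0450), 2 of 10 members with 35.8% of all genes called (19.0% higher and 16.8% lower). The ACTA2 libraries of the 2 states overlapped.

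That ACTA2 call was lost in 10 alternatives: without quiescent replicate 2 (-0.65, adjusted p = 0.0746) or 3 (-0.31, adjusted p = 0.241), without etoposide replicate 1 (-0.72, adjusted p = 0.0548) or 3 (-0.39, adjusted p = 0.186), and in 6 others. Etoposide Ribo-seq replicate 3 was the lowest of its state for all 10 members, as quiescent replicate 3 was the highest of its own. VCL went from -0.34 to -0.52 without quiescent replicate 1 (adjusted p = 0.0020).

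The 2 kinds of senescent cell were also compared directly. In RNA-seq TAGLN alone was called, 0.38 ± 0.13 higher after irradiation than with etoposide on the log2 scale (adjusted p = 0.0452), with 22.6% of all genes called (9.68% higher and 12.9% lower). The call was lost without irradiated replicate 1 (0.44, adjusted p = 0.0634), 2 (0.24, adjusted p = 0.229) or 3 (0.45, adjusted p = 0.0507), without etoposide replicate 1 (0.41, adjusted p = 0.0838) or 3 (0.28, adjusted p = 0.173), and in 4 other fits. In footprints TAGLN was 0.57 ± 0.13 higher (adjusted p = 0.00664) and MYL9 0.51 ± 0.12 higher (adjusted p = 0.00717), and VCL was 0.77 ± 0.19 lower (-0.77, adjusted p = 0.00984), 3 of 10 members with 22.5% of all genes called (8.82% higher and 13.7% lower). These 3 calls held in every alternative fit, and the libraries of the 2 states did not overlap for any of the 3. Without etoposide replicate 3, TPM1 (-0.44, adjusted p = 0.0133) and TPM2 (-0.38, adjusted p = 0.00754) were also called lower. With the 2 states fitted alone, VCL mRNA (-0.31, adjusted p = 0.0171) and TPM2 footprints (-0.28, adjusted p = 0.0344) were called lower as well.

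Translational efficiency is the ratio of footprints to mRNA, and its change was tested as an interaction of library kind and state over 11711 genes. No member was called in quiescent, irradiated or etoposide-treated against cycling cells, and few genes were (0.00854%, 0.0512% and 0.0683% of all). None was called in irradiated or etoposide-treated against quiescent cells or between the 2 senescent states (0.00854%, 0.162% and 0.0% of all genes). DESeq2 called no member in these 6 comparisons, and an unadjusted p under 0.05 was seen once, in irradiated against quiescent cells. The lack of a call does not show that efficiency was equal: SEs of the members' changes after irradiation ran from 0.19 to 0.45. In a fit of the 2 states alone VCL was called lower after irradiation against cycling cells (-0.57, adjusted p = 0.0106) and against etoposide (-0.53, adjusted p = 0.0213), beside -0.44 and -0.36 with all 5 states.

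With thapsigargin 20.7% of all genes changed in translational efficiency, and 1 member, ACTB, fell by 0.69 ± 0.23 on the log2 scale (adjusted p = 0.0357). Its ratio of footprint CPM to mRNA CPM was 1.40 in cycling and 0.898 in thapsigargin-treated cells. The call was lost in 11 alternatives. Among them were the fits without thapsigargin RNA-seq replicate 2 (-0.37, adjusted p = 0.290), thapsigargin Ribo-seq replicate 1 (-0.63, adjusted p = 0.113), cycling RNA-seq replicate 1 (-0.74, adjusted p = 0.0685) or 2 (-0.64, adjusted p = 0.104), and cycling Ribo-seq replicate 1 (-0.67, adjusted p = 0.0597) or 3 (-0.63, adjusted p = 0.0708). ACTG1, the sister gene, had 0.41 ± 0.29 (adjusted p = 0.332), and 0.89 without thapsigargin RNA-seq replicate 2 (adjusted p = 0.0371). ACTA2 and CNN1, whose mRNA fell, had efficiency values of 0.66 ± 0.38 (adjusted p = 0.224) and 0.69 ± 0.34 (adjusted p = 0.155). In an edgeR fit with a block for replicate number both were called (0.69 and 0.77, adjusted p = 0.0111 and 0.0194), and ACTB was not (-0.61, adjusted p = 0.0665).

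The wider contractile and actin system was followed through 98 other genes in 5 lists, all of which passed the filter. In quiescent RNA-seq 11 were higher and 4 lower than in cycling cells (5.18% of all genes were higher and 10.4% lower). After irradiation 17 were higher and 9 lower (16.2% and 18.8% of all genes), with etoposide 17 and 18 (16.8% and 17.8%), and with thapsigargin 19 and 12 (11.7% and 12.8%). Median log2 fold changes over the 98 genes were 0.17, 0.06, -0.06 and 0.13, against 0.02, 0.03, 0.00 and -0.03 over all genes. In footprints the counts were 24 higher and 5 lower at quiescence (8.15% and 14.2% of all genes), 26 and 12 after irradiation (19.0% and 21.6%), 17 and 15 after etoposide (16.8% and 17.1%), and 28 and 26 under thapsigargin (21.1% and 23.6%). Other fits and single libraries moved these counts by over 1.5 times. With the compared states fitted alone, 1 rose and 0 fell in quiescent RNA-seq, 27 and 17 after irradiation, and 8 and 5 with thapsigargin. In quiescent footprints 18 then rose and 2 fell. DESeq2 gave 17 and 4 in quiescent RNA-seq. Without cycling RNA-seq replicate 1, 0 rose and 1 fell at quiescence, 7 rose and 12 fell with etoposide, and 10 rose and 6 fell with thapsigargin. Without replicate 2 of the same group the counts were 4 and 1, 7 and 12, and 9 and 7. Without quiescent RNA-seq replicate 1 or 2 only 1 fell at quiescence, with 11 and 10 rising. In footprints, 21 rose and 3 fell at quiescence without cycling replicate 1, 24 and 7 after irradiation without irradiated replicate 1, and 21 and 17 under thapsigargin without thapsigargin replicate 1.

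Among 20 contractile filament genes, 5 rose and 0 fell in quiescent RNA-seq (5.18% of all genes rose and 10.4% fell). After irradiation 5 rose and 1 fell (16.2% and 18.8% of all genes). With etoposide 4 rose and 4 fell (16.8% and 17.8%), and with thapsigargin 3 rose and 5 fell (11.7% and 12.8%). Counts of the 5 lists were not tested against these shares. MYH11, the smooth muscle myosin heavy chain, averaged 3.70 CPM in cycling cells, 10.9 in quiescent and 39.4 in irradiated cells. Its mRNA rose by 1.57 ± 0.41 and 3.43 ± 0.43 on the log2 scale (adjusted p = 0.0200 and 4.7e-05), and was 0.174 CPM with thapsigargin (-4.24 ± 0.60, adjusted p = 0.00025). SYNPO2, an actin-bundling protein of muscle, rose with etoposide by 2.96 ± 0.22 (adjusted p = 2.8e-07). Against quiescent cells it rose in both senescent states, by 2.49 ± 0.18 after irradiation (adjusted p = 1.6e-06) and 2.45 ± 0.18 with etoposide (adjusted p = 5.2e-07). TAGLN2, a relative of TAGLN, fell by 0.82 ± 0.20 after irradiation (adjusted p = 0.00646) and by 1.16 ± 0.20 with etoposide (adjusted p = 0.00058). SMTN, which encodes smoothelin, rose with thapsigargin by 1.17 ± 0.18 (adjusted p = 0.00056). The quiescent call of MYH11 was lost in a fit of the 2 states alone (1.57, adjusted p = 0.0545) and with unstranded counts (1.24, adjusted p = 0.0588). Without cycling replicate 1 the quiescent rise of MYH11 (1.19, adjusted p = 0.232) and the irradiated fall of TAGLN2 (-0.77, adjusted p = 0.0535) were no longer called.

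Of 28 actin turnover genes, 1 rose and 2 fell in quiescent cells (5.18% and 10.4% of all genes). After irradiation 4 rose and 3 fell (16.2% and 18.8% of all genes). With etoposide 2 rose and 5 fell (16.8% and 17.8%), and with thapsigargin 3 rose and 1 fell (11.7% and 12.8%). DIAPH3, a formin that nucleates actin filaments, fell in quiescent (-0.63 ± 0.17, adjusted p = 0.0229), irradiated (-1.80 ± 0.17, adjusted p = 4.3e-06) and etoposide-treated cells (-1.74 ± 0.17, adjusted p = 4.6e-06). DSTN, which encodes the filament-severing protein destrin, rose by 0.85 ± 0.13 after irradiation (adjusted p = 0.00024) and by 0.47 ± 0.13 with etoposide (adjusted p = 0.0130). GSN, the gene of the severing protein gelsolin, rose in quiescent cells by 0.51 ± 0.16 (adjusted p = 0.0421). With thapsigargin TMSB4X, which encodes an actin-sequestering thymosin, fell by 0.64 ± 0.15 (adjusted p = 0.00711). ARPC1B, of the Arp2/3 complex, was also called with thapsigargin, from 2.97 to 14.1 CPM (2.24 ± 0.30, adjusted p = 0.00015), but was 0.23 (adjusted p = 0.652) when reads of both strands were counted. Its level was low in every state and overlapping gene models were not examined, so this value may not measure ARPC1B and is uncertain.

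Several turnover calls depended on the fit or on single libraries. With the 2 compared states fitted alone, the quiescent calls of DIAPH3 (-0.63, adjusted p = 0.0835) and GSN (0.51, adjusted p = 0.121) were lost. So was the thapsigargin call of TMSB4X (-0.61, adjusted p = 0.0674). The quiescent fall of DIAPH3 was lost without cycling replicate 1 (-0.45, adjusted p = 0.281) or quiescent replicate 1 (-0.55, adjusted p = 0.0687) or 2 (-0.59, adjusted p = 0.0556). GSN was lost without cycling replicate 1 (0.51, adjusted p = 0.2098) or 2 (0.52, adjusted p = 0.177), or quiescent replicate 1 (0.42, adjusted p = 0.115) or 2 (0.47, adjusted p = 0.0993). DSTN with etoposide was lost without cycling replicate 1 (0.45, adjusted p = 0.0924) or 2 (0.49, adjusted p = 0.0691). TMSB4X was lost without cycling replicate 1 (-0.55, adjusted p = 0.0677) or thapsigargin replicate 2 (-0.48, adjusted p = 0.0655).

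Of 10 actin crosslinkers, 1 rose in quiescent cells (5.18% of all genes rose and 10.4% fell). After irradiation 2 rose and 1 fell (16.2% and 18.8% of all genes). With etoposide 3 rose and 2 fell (16.8% and 17.8%), and with thapsigargin 3 rose and 1 fell (11.7% and 12.8%). CTTN, the gene of cortactin, rose in quiescent (0.36 ± 0.11, adjusted p = 0.0491) and irradiated cells (0.85 ± 0.12, adjusted p = 8.3e-05). SPTAN1, a spectrin, rose by 0.65 ± 0.19 with etoposide (adjusted p = 0.0178). FLNC, the gene of filamin C, rose by 1.26 ± 0.26 with thapsigargin (adjusted p = 0.00415) and MARCKS fell by 0.58 ± 0.14 (adjusted p = 0.00866). With the 2 compared states fitted alone, the calls of CTTN at quiescence (0.36, adjusted p = 0.166) and of MARCKS (-0.55, adjusted p = 0.0624) were lost. CTTN at quiescence was also lost with DESeq2 size factors, without a filter on low counts, with all genes tested and with unstranded counts. The quiescent rise of CTTN was lost without cycling replicate 1 (0.38, adjusted p = 0.202) or 2 (0.34, adjusted p = 0.228) and without quiescent replicate 1 (0.28, adjusted p = 0.125) or 2 (0.39, adjusted p = 0.0627). SPTAN1 was lost without cycling replicate 1 (0.55, adjusted p = 0.152) or 2 (0.76, adjusted p = 0.0510) or etoposide replicate 3 (0.53, adjusted p = 0.0633), and MARCKS without cycling replicate 1 (-0.55, adjusted p = 0.0596).

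Of 20 focal adhesion genes, 2 rose and 1 fell in quiescent cells (5.18% and 10.4% of all genes). After irradiation 3 rose and 3 fell (16.2% and 18.8% of all genes). With etoposide 4 rose and 2 fell (16.8% and 17.8%), and with thapsigargin 5 rose and 3 fell (11.7% and 12.8%). TNS3, an integrin-binding tensin, rose in quiescent (0.64 ± 0.12, adjusted p = 0.00362), irradiated (1.27 ± 0.12, adjusted p = 4.7e-06) and etoposide-treated cells (0.70 ± 0.12, adjusted p = 0.00055). ITGB1, the integrin beta 1 subunit, fell in quiescent (-0.80 ± 0.25, adjusted p = 0.0451) and thapsigargin-treated cells (-1.09 ± 0.28, adjusted p = 0.0123). The largest falls in the senescent states were those of ITGA5, the fibronectin receptor's alpha subunit, after irradiation (-1.36 ± 0.22, adjusted p = 0.00035), and of TGFB1I1, the gene of the adhesion adaptor Hic-5, with etoposide (-1.14 ± 0.15, adjusted p = 7.1e-05). BCAR1, an adhesion scaffold, rose with thapsigargin by 1.44 ± 0.18 (adjusted p = 0.00010). The quiescent call of ITGB1 was lost in a fit of the 2 states alone (-0.80, adjusted p = 0.174) and without a filter on low counts (-0.80, adjusted p = 0.0524). Without cycling replicate 1 the quiescent calls of TNS3 (0.58, adjusted p = 0.0590) and ITGB1 (-0.83, adjusted p = 0.172) were lost. ITGB1 was also lost at quiescence without cycling replicate 2 (-0.77, adjusted p = 0.180) or quiescent replicate 2 (-0.82, adjusted p = 0.0728), and with thapsigargin without cycling replicate 2 (-1.06, adjusted p = 0.0645) or thapsigargin replicate 2 (-0.96, adjusted p = 0.0784).

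The list around SRF and contractile signalling held 20 genes, among them responsive genes such as ANKRD1 beside regulators. In quiescent cells 2 rose and 1 fell (5.18% and 10.4% of all genes). After irradiation 3 rose and 1 fell (16.2% and 18.8% of all genes). With etoposide 4 rose and 5 fell (16.8% and 17.8%), and with thapsigargin 5 rose and 2 fell (11.7% and 12.8%). MYOCD encodes myocardin, a coactivator of SRF in muscle. Its mRNA averaged 43.2 ± 23 CPM in cycling cells and fell in all 4 comparisons, which share the 2 cycling libraries. Its log2 fold change was -1.13 ± 0.32 at quiescence (adjusted p = 0.0279), -2.51 ± 0.33 after irradiation (adjusted p = 6.2e-05), -2.16 ± 0.32 after etoposide (adjusted p = 0.00018) and -2.54 ± 0.37 under thapsigargin (adjusted p = 0.00033). ANKRD1, a gene known to respond to mechanical load, rose by 1.77 ± 0.46 after irradiation (adjusted p = 0.00915), 3.36 ± 0.48 with etoposide (adjusted p = 0.00012) and 2.60 ± 0.49 with thapsigargin (adjusted p = 0.00200). LIMK1, a kinase that inactivates cofilin, rose in quiescent cells by 0.56 ± 0.13 (adjusted p = 0.00962), but was not called without cycling replicate 1 (0.49). With the 2 compared states fitted alone, the quiescent calls of LIMK1 (0.56, adjusted p = 0.0715) and MYOCD (-1.13, adjusted p = 0.0873) were lost. The quiescent fall of MYOCD was lost without cycling replicate 2 (-0.45, adjusted p = 0.480) or quiescent replicate 1 (-0.997, adjusted p = 0.0828) or 2 (-1.02, adjusted p = 0.0756), and ANKRD1 after irradiation without cycling replicate 2 (1.32, adjusted p = 0.101).

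The genes whose RNA-seq profiles lay closest to those of ACTA2 and ACTB over the 13 libraries were all outside the group. By Pearson correlation of log2 CPM, the genes most like ACTA2 were ZSWIM3 (r = 0.97), ZNF649 (0.94), ZNF595 (0.93), PTPN4 (0.93) and ARMCX6 (0.93), and those most like ACTB were AHNAK2 (0.95), VPS37B (0.94), ABLIM1 (0.93), MEAK7 (0.93) and FOSL1 (0.92). The libraries share 5 states and their batches, so these values describe likeness only. Among the members, ACTA2 lay closest to CNN1 (r = 0.92) and TAGLN (0.82), near the fifth gene above, while ACTA2 and ACTB had r = -0.56. Over the 45 pairs of members r ran from -0.71 to 0.92 with a median of 0.12 in RNA-seq, and from -0.64 to 0.85 with a median of 0.47 in Ribo-seq.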

How the data were processed

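Per the submitters' processing notes, reads were demultiplexed with bcl2fastq and aligned with STAR 2.7.10b to hg38, and DESeq2 1.36.0 was used. The deposited values are the authors' whole-number read counts per gene, in unstranded, forward and reverse columns as STAR writes them, per the file layout. The reverse column was used for RNA-seq and the forward column for Ribo-seq, the strand with more reads, since the opposite strand held 3.56 to 10.7% of stranded gene counts. Lines for unmapped, multimapped and unassigned reads were left out of library sizes.

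The 60534 IDs shared by all files were kept, 60461 of them paired with a symbol, and 40525 matched RefSeq (GRCh38.p14), 19303 as protein coding. Protein-coding genes passing edgeR's filterByExpr (minimum count 10) were tested: 13289 in RNA-seq, 11762 in Ribo-seq and 11711 for translational efficiency. edgeR 4.0.16 in R 4.3.3 fitted all 5 states together with TMM scaling and a robust quasi-likelihood F test, checked on simulated counts. DESeq2 1.42.0, other scaling, filters, strands, fits of the compared states alone, a replicate block and each library left out were alternatives. Groups came from titles, because 1 characteristic calls all thapsigargin libraries protected fragments. The labels give different RNase times in different places.

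The members and the gene lists were chosen with earlier results of these data known. Beside the 10 members, the genes named are the largest rise and the largest fall among the called genes of each list, in each RNA-seq comparison with cycling cells, and the 5 genes most like ACTA2 and ACTB by Pearson correlation. A gene that this rule picked among the crosslinkers is not reported here. Coding lengths were not used here, so levels are not compared between genes.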

Additional observations from a re-analysis of the deposited data

Results flagged for a closer look

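Irradiated and etoposide-treated cells differed from each other in 4 values of the members, each tested directly between the 2 senescent states with edgeR. As irradiated minus etoposide-treated on the log2 scale, the difference was 0.38 for TAGLN mRNA, 0.57 for TAGLN footprints, 0.51 for MYL9 footprints and -0.77 for VCL footprints. The 3 footprint differences were called in every alternative fit, and the TAGLN mRNA difference was lost in 9 of them.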

How the results depend on the processing

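No called value turned its direction under any alternative. Of the log2 fold changes of members and named genes recomputed, 3307 kept their side of the threshold, 127 lost a call and 42 gained one. With the compared states fitted alone, members called in RNA-seq went from 2 to 4 after irradiation and from 2 to 1 under thapsigargin, in Ribo-seq from 4 to 1 at quiescence and from 2 to 1 for etoposide against quiescence, and in efficiency from 0 to 1 after irradiation, against cycling cells and against etoposide, and from 1 to 0 under thapsigargin. DESeq2 called 1 member in quiescent RNA-seq and 0 in thapsigargin efficiency. Unstranded counts gave 1 in quiescent RNA-seq, 0 in RNA-seq of irradiated against etoposide-treated cells, 1 in Ribo-seq of etoposide against quiescence and 0 in thapsigargin efficiency. DESeq2 size factors gave 0, 1 and 0 in the last 3 of these. Without a filter on low counts the numbers were 0 for irradiated against etoposide RNA-seq and 3 for thapsigargin Ribo-seq, and testing all genes gave 1 for etoposide against quiescence in Ribo-seq. With a replicate block, Ribo-seq of etoposide against quiescence had 1 member called and thapsigargin efficiency 2, ACTA2 (0.69) and CNN1 (0.77), without ACTB (-0.61), and TPM1 footprints at quiescence were no longer called (adjusted p = 0.0625), while TPM2 mRNA under thapsigargin was (-0.45, adjusted p = 0.0290). Deviations of same-numbered libraries had correlations down to -0.19 within an assay. Between RNA-seq and Ribo-seq they ran from -0.02 to 0.57 with a median of 0.09, 6 of 13 above 0.1. Pairs of different numbers had a median of -0.06, with 2 of 22 above 0.1. Not every pair was above 0.1, so the numbers were not taken to pair the libraries. This does not show that the libraries are unpaired, because deviations from means of 2 or 3 libraries depend on each other. The efficiency test without a block leaves out any such pairing, and its thapsigargin calls differ from those with the block. Leaving out 1 library at a time gave 0 to 2 called members in quiescent, 0 to 2 in irradiated and 0 to 4 in thapsigargin RNA-seq against cycling cells, 0 to 3 in irradiated and 1 to 3 in etoposide RNA-seq against quiescence, and 0 to 1 between the senescent states. In Ribo-seq the ranges were 1 to 5 at quiescence, 2 to 4 with etoposide and 2 to 4 under thapsigargin, 1 to 3 for etoposide against quiescence and 3 to 5 between the senescent states, and in thapsigargin efficiency 0 to 1. With the compared states fitted alone, the number of all genes called went from 2068 to 796 in quiescent (715 without cycling replicate 1) and 3254 to 1545 in thapsigargin RNA-seq, 3986 to 6092 in etoposide Ribo-seq and 2652 to 4191 between the senescent states, and in efficiency 2427 to 1065 under thapsigargin, 6 to 728 after irradiation and 0 to 596 between the senescent states. Size factors moved the median efficiency change of all genes for etoposide against quiescence from -0.09 to 0.04, and for irradiated against etoposide-treated cells from 0.09 to -0.01. Groups of 2 or 3 libraries limit what any of these comparisons can detect.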
